A study of Mus musculus with 16 samples.

Results

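The genes described are the transcription factor gene Srebf2 and 7 enzymes of sterol synthesis that are known SREBP2 targets (Hmgcs1, Idi1, Fdps, Fdft1, Sqle, Lss and Cyp51). They were chosen by gene symbol, and all 8 were found among the 24327 genes listed both at rest and after running. Steady-state RNA was sequenced from the quadriceps, a thigh muscle, of HDAC3-KO and wild-type (WT) male mice aged 4 months, on a background labelled C57B/6. HDAC3 is a histone deacetylase that acts in the NCoR and SMRT corepressor complexes. The 4 groups were HDAC3-KO at rest, WT at rest, HDAC3-KO after running and WT after running, with 3 libraries each. Running meant 3 treadmill bouts of 1 h at 10 m/min, separated by pauses of 1 h, with muscle taken 2 h after the third. All groups shared normal chow and a normal light cycle. The labels did not name the promoter or cells that drive the deletion, nor say that libraries came from separate animals, so p-values measure only the spread between these samples, which may be technical.

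Cells make cholesterol from acetyl-CoA by way of mevalonate, isoprenoid diphosphates, squalene and lanosterol. SREBP2, the protein of Srebf2, is held in the endoplasmic reticulum by SCAP and the INSIG proteins when sterols are plentiful. When sterols fall it is cut by the site-1 and site-2 proteases, and the released part enters the nucleus and binds sterol regulatory elements in the promoters of pathway genes, often beside NF-Y (CCAAT) and Sp1 (GC box) sites. Muscle uses the same pathway for membrane cholesterol and also for ubiquinone, dolichol and the prenyl groups of small GTPases.

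The promoters below are shown so that the sequence letters through which SREBP2 and its partners are known to act can be looked for. They come from RefSeq on GRCm38.p6 and hold the 250 bases before the annotated start, 5′ to 3′ on the gene's strand. Of the 8 genes, 5 matched the promoter table (Srebf2, Hmgcs1, Idi1, Lss and Cyp51). All of these but Lss are printed. Capitals mark, on either strand, matches to CCAAT and to TCACNNCA, a loose form of the sterol regulatory element.
Srebf2 promoter, chr15:82147019-82147268, plus strand: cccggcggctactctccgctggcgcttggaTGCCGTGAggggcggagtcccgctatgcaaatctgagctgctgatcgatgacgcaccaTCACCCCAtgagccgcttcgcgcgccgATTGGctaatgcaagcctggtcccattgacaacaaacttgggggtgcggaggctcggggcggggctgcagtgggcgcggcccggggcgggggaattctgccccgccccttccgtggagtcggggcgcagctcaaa
Hmgcs1 promoter, chr13:119690101-119690350, plus strand: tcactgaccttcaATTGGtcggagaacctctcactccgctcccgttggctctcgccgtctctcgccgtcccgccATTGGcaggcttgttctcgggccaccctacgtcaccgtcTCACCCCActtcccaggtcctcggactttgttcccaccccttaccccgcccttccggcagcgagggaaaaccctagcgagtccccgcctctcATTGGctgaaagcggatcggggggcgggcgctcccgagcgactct
Idi1 promoter, chr13:8885356-8885605, plus strand: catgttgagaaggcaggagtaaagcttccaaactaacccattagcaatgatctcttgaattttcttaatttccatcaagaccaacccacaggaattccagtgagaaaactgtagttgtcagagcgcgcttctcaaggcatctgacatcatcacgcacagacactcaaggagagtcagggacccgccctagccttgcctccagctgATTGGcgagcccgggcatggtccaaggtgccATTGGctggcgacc
Cyp51 promoter, chr5:4104698-4104947, minus strand: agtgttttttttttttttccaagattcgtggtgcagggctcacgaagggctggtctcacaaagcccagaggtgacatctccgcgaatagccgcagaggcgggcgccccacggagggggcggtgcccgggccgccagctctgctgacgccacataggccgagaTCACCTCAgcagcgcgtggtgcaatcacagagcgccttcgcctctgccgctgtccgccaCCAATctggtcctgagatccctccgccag

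The sterol regulatory element letters TCACCCCA were found in Srebf2, with first base at position -162 from its start, and in Hmgcs1, with first base at -137. The looser letters TCACNNCA, which contain that element, were also met by TCACCTCA in Cyp51, with first base at -88, and by a second match in Srebf2, whose minus-strand letters read TGCCGTGA in the printed direction. Neither form was in the windows of Idi1 or Lss. Among 32851 RefSeq promoter windows of the same length, 1.34% held TCACCCCA and 11.4% held TCACNNCA on either strand. CCAAT, which 33.8% of all windows held, was in all 5 members, with 3 matches in Hmgcs1, 2 in Idi1 and 1 each in Srebf2, Lss and Cyp51. The GC box GGGCGG, in 32.7% of all windows, was also in all 5 members, with 4 matches in Srebf2, 2 each in Hmgcs1 and Lss and 1 each in Idi1 and Cyp51. A match describes letters in the window, not a bound site, and the absence of a match says nothing of binding elsewhere.

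Values are FPKM, the authors' fragment counts scaled by transcript length and library size, which can be compared between genes because they are scaled by length. The FPKM total of a library lay in the range 454359 to 522584, with 10123 to 10544 genes at or above 1 FPKM. Depth in reads is unknown, and error could be taken only from the 3 libraries of each group. Hdac3 itself was at 5.51, 6.29 and 8.16 FPKM in HDAC3-KO at rest, against 33.3, 31.0 and 23.7 FPKM in WT at rest. After running it was at 5.32, 6.37 and 4.13 FPKM in HDAC3-KO, against 31.0, 32.0 and 27.6 FPKM in WT, so every library matched its label. The summed FPKM of 7 muscle fibre markers lay between 41700 and 59400 in all 12 libraries, as the tissue label says. The summed FPKM of 4 neutrophil markers reached 527.0 in WT at rest library 2 and 343.0 in HDAC3-KO after running library 3, and lay between 1.48 and 12.6 in the other 10 libraries, so those libraries stood apart.

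The members covered a wide range of levels. Over the 12 libraries the mean was 22.9 FPKM for Fdft1, 18.8 for Fdps, 4.16 for Idi1, 2.05 for Cyp51, 0.985 for Srebf2, 0.790 for Lss, 0.524 for Sqle and 0.0274 for Hmgcs1. Fdft1 had a higher mean than 91.2% of genes, and Sqle than 51.8%. The order held in all 12 libraries for Fdps over Idi1, Idi1 over Cyp51, Cyp51 over Srebf2 and Sqle over Hmgcs1. It held in 9 of 12 libraries for Fdft1 over Fdps, in 8 for Srebf2 over Lss and in 9 for Lss over Sqle, neighbours whose libraries overlapped in 2, 4 and 3 of the 4 groups. Among the 8 members, the RNAs for the enzymes that make farnesyl diphosphate and squalene thus had the highest FPKM. Fdft1 overlaps another gene, as given below, so its level may include reads of that gene. Sqle was the lowest of the 7 members with a value above 0 in every library, and Hmgcs1, listed at 0 in 9 of 12 libraries, has no dependable place in the order. Only 4 members were at 1 FPKM or more in every library, and the authors tested 4 of 8 at rest (Fdft1, Fdps, Idi1 and Cyp51) and 3 of 8 after running (without Cyp51). A test over all genes with a value above 0 is given for the rest.

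**Figure D1:**
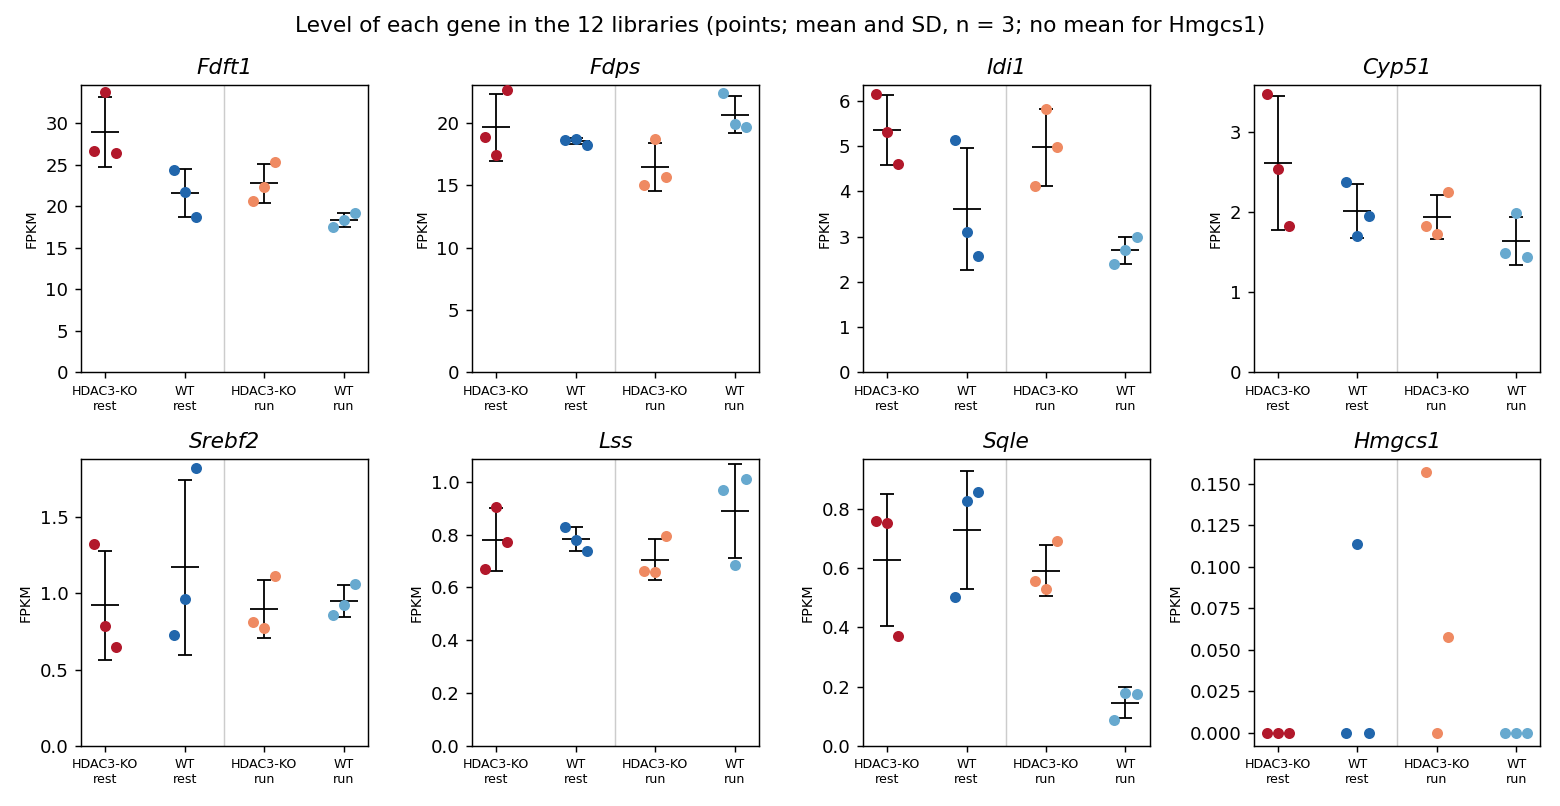
FPKM of the 8 genes in each library (vertical axis, each panel with its own scale) for HDAC3-KO and WT at rest and after running (points are libraries, with the mean and SD, n = 3, except for Hmgcs1, which was listed at 0 in 9 of 12). Idi1 sits between 4.12 and 6.16 FPKM in the 6 HDAC3-KO libraries, and Sqle is lowest in WT after running.

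Differences between genotypes were tested within rest and within running with limma on log2(FPKM + 1), where a positive difference means higher in HDAC3-KO, and p-values were adjusted over all genes tested, with a threshold of 0.05. A gene is said to have risen or fallen there only when the authors' deposited q was also at or under 0.05. At rest 4.72% of the 9204 tested genes passed limma and 10.8% passed the authors' q. After running the shares were 3.73% and 9.57% of 9037 genes. None of the 4 members tested at rest and none of the 3 tested after running passed limma, though 1 of 4 and 3 of 3 had an unadjusted limma p under 0.05, as did 1975 of all 9204 genes at rest and 1797 of all 9037 after running. With all genes that had a value above 0, 1.46% passed limma at rest and 0.645% after running, with no member among them in either condition (1 and 4 of the 8 at an unadjusted p under 0.05, as were 2531 of 16931 genes at rest and 2375 of 16906 after running). The authors' q called 1 member, Idi1 after running.

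The mean HDAC3-KO effect over both conditions, the average of the difference at rest and the difference after running, has the error of all 12 libraries. By limma 17.2% of 8854 genes passed, and of the 3 members tested in both conditions 2 passed, Idi1 and Fdft1, both higher in HDAC3-KO. With all genes that had a value above 0, 7.87% passed, and the same 2 of 8 members were called. A bulk muscle value cannot tell more cells of a type from more RNA per cell.

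Idi1 encodes isopentenyl-diphosphate isomerase, which makes dimethylallyl diphosphate, the starter unit of the isoprenoid chain. It was at 6.16, 5.32 and 4.62 FPKM in HDAC3-KO at rest, against 5.15, 3.10 and 2.58 FPKM in WT at rest. The exercised libraries had 4.12, 5.82 and 4.99 FPKM in HDAC3-KO, against 2.40, 2.70 and 3.00 FPKM in WT. The genotypes overlapped at rest through WT library 1, and did not overlap after running. HDAC3-KO over WT was 1.49-fold at rest, a log2 difference of 0.50 (SE 0.21, limma adjusted p = 0.234, authors' deposited q = 0.0831). After running it was 1.84-fold, a log2 difference of 0.68 (SE 0.15, limma adjusted p = 0.0545), while the q in the authors' deposited table was 0.00518. Averaged over rest and running, Idi1 was higher in HDAC3-KO by 0.59 (SE 0.14, limma adjusted p = 0.0110). Its near copy Idi2, with which reads could be shared, lay between 0 and 0.174 FPKM in the 12 libraries.

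Fdft1 encodes squalene synthase, which joins a pair of farnesyl diphosphates in the first step committed to sterols. It was at 26.7, 33.8 and 26.4 FPKM in HDAC3-KO at rest, against 24.4, 21.7 and 18.7 FPKM in WT at rest. The exercised libraries had 20.7, 22.3 and 25.3 FPKM in HDAC3-KO, against 17.5, 18.3 and 19.2 FPKM in WT. All HDAC3-KO libraries were above all WT libraries in both conditions. The log2 difference was 0.41 at rest (SE 0.14, limma adjusted p = 0.154, authors' deposited q = 0.514) and 0.29 after running (SE 0.12, limma adjusted p = 0.221, authors' deposited q = 0.744). Averaged over both conditions it was 0.35 (SE 0.091, limma adjusted p = 0.0206). Fdft1 shares 774 bases with Ctsb, the cathepsin B gene, in the GRCm38.p6 gene table, and no strand of counting was given, so reads in the shared stretch cannot be told apart. Ctsb averaged 79.0 FPKM in HDAC3-KO and 61.7 FPKM in WT at rest, and 76.7 FPKM in HDAC3-KO and 64.0 FPKM in WT after running. Its mean effect was 0.31 (SE 0.069, limma adjusted p = 0.00971), and its part in the Fdft1 value was not tested.

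Fdps encodes farnesyl diphosphate synthase, which acts between Idi1 and Fdft1. It was at 18.9, 17.4 and 22.7 FPKM in HDAC3-KO at rest, against 18.6, 18.7 and 18.3 FPKM in WT at rest, with overlap. Exercised muscle had 15.1, 18.7 and 15.7 FPKM in HDAC3-KO, against 22.4, 19.9 and 19.7 FPKM in WT, with every HDAC3-KO library below every WT library. The log2 difference was 0.07 at rest (SE 0.12, limma adjusted p = 0.773) and -0.31 after running (SE 0.13, limma adjusted p = 0.217, authors' deposited q = 0.324), and neither passed. Its neighbours in the pathway thus had HDAC3-KO libraries above WT libraries after running, and Fdps had them below.

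Sqle encodes squalene epoxidase, an oxygen-using step after squalene. It was at 0.557, 0.530 and 0.691 FPKM in HDAC3-KO after running, against 0.0867, 0.177 and 0.174 FPKM in WT after running. At rest it was at 0.759, 0.753 and 0.372 FPKM in HDAC3-KO, against 0.501, 0.829 and 0.860 FPKM in WT. The genotypes were separated after running and overlapped at rest. The 4.06-fold ratio after running corresponded to 0.47 on the log2(FPKM + 1) scale (SE 0.085, limma adjusted p = 0.0707, range over alternatives 0.0758 to 0.213), a scale that understates changes at such levels. The difference did not pass limma. All values were under 1 FPKM, and the authors did not test the gene.

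Cyp51 encodes lanosterol demethylase, the first enzyme after lanosterol. It was at 3.49, 2.54 and 1.82 FPKM in HDAC3-KO at rest, against 2.38, 1.71 and 1.95 FPKM in WT at rest. Exercised muscle had 1.83, 1.73 and 2.26 FPKM in HDAC3-KO, against 1.49, 1.99 and 1.44 FPKM in WT. The genotypes overlapped in both conditions, with log2 differences of 0.24 at rest (SE 0.20, limma adjusted p = 0.535) and 0.16 after running (SE 0.16, limma adjusted p = 0.698).

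Srebf2, the regulator, showed no difference past the test in either condition. It was at 1.33, 0.789 and 0.649 FPKM in HDAC3-KO at rest, against 0.729, 0.965 and 1.82 FPKM in WT at rest. Its values after running were 0.810, 0.771 and 1.12 FPKM in HDAC3-KO, against 0.858, 0.927 and 1.06 FPKM in WT. The mean effect was -0.10 with a 95% interval of -0.39 to 0.19 (limma adjusted p = 0.732). These are RNA levels, and cleavage of the protein was not measured. The miRNA gene Mir33 within Srebf2 was listed at 0 in all 12 libraries.

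Lss encodes lanosterol synthase, which closes the sterol rings. It was at 0.669, 0.905 and 0.771 FPKM in HDAC3-KO at rest, against 0.831, 0.781 and 0.738 FPKM in WT at rest. Its values after running were 0.663, 0.659 and 0.795 FPKM in HDAC3-KO, against 0.970, 0.684 and 1.01 FPKM in WT. The genotypes overlapped in both conditions, and the mean effect was -0.07 with a 95% interval of -0.23 to 0.08 (limma adjusted p = 0.635).

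Hmgcs1 encodes the cytosolic HMG-CoA synthase, the first dedicated step. It was listed at 0 in 9 of 12 libraries, which can be a failed estimate. The 3 values above 0 were 0.157 and 0.0579 FPKM in HDAC3-KO after running and 0.114 FPKM in WT at rest library 2. No fold is given.

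Among the 8 members, HDAC3-KO and WT libraries were fully separated for 1 at rest (Fdft1, above WT in HDAC3-KO) and for 4 after running (Idi1, Fdft1 and Sqle above, Fdps below). Among all genes with a value above 0, 20.0% were separated in this way at rest and 19.1% after running. The HDAC3-KO mean was the higher one for 4 of 8 members at rest and 5 of 8 after running, the 5 including Hmgcs1 with its values at 0. Among the tested members alone, the log2 difference was above 0 for 4 of 4 at rest and 2 of 3 after running. Over all tested genes 51.7% of log2 differences were above 0 at rest and 49.9% after running. Members of 1 pathway are not replicates of a condition, so these counts carry no test.

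**Figure D2:**
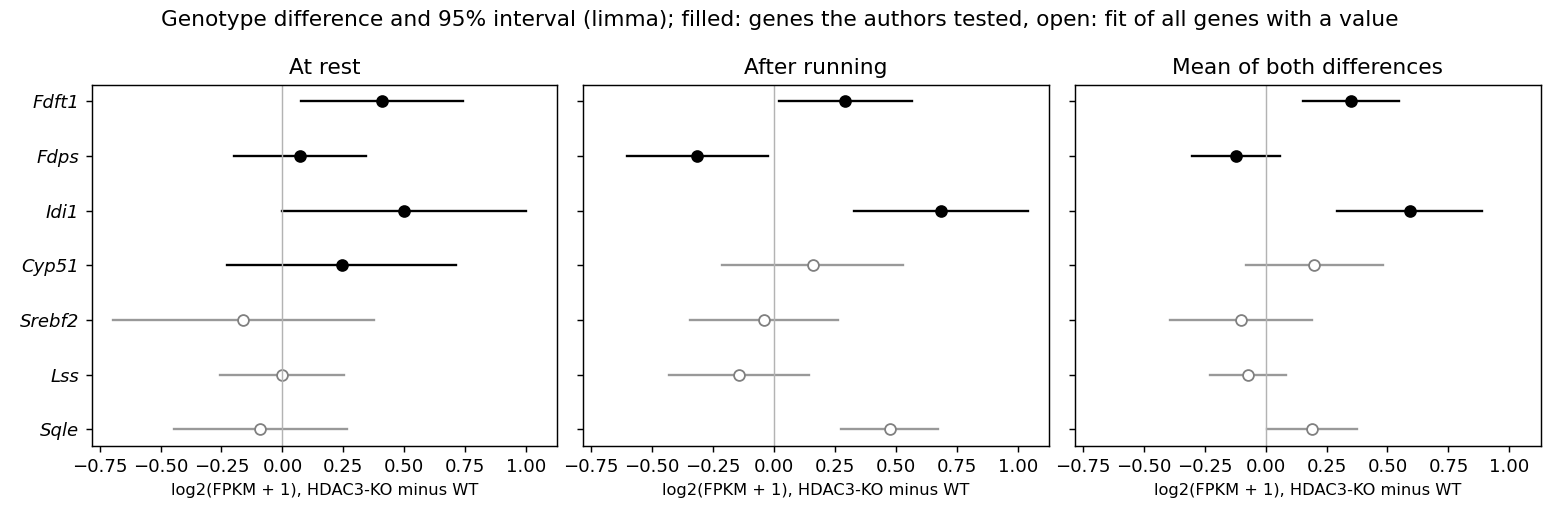
Log2 difference of HDAC3-KO minus WT on the log2(FPKM + 1) scale (horizontal axis, limma estimate with its 95% interval, not adjusted for the number of genes) for 7 members at rest, after running and averaged over both conditions. Filled points are genes the authors tested, and open points come from the fit over all genes with a value above 0. The mean effects of Idi1 (0.59) and Fdft1 (0.35) have intervals above 0, and those of Srebf2 (-0.10) and Lss (-0.07) include 0.

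Whether running altered the HDAC3-KO effect was tested as the difference after running minus the difference at rest. By limma 0% of 8854 genes passed (433 at an unadjusted p under 0.05), none of the 3 members among them (1 at an unadjusted p under 0.05, Fdps at -0.39, SE 0.16, limma adjusted p = 0.923). With all genes that had a value above 0, again 0% of 17652 passed (933 at an unadjusted p under 0.05). Sqle had the largest such value of the members, 0.56 (SE 0.17, limma adjusted p = 0.897). For Idi1 it was 0.19 with a 95% interval of -0.41 to 0.78, and for Fdft1 -0.11 with a 95% interval of -0.51 to 0.28, so neither a larger nor a smaller effect after running was detected.

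Levels after running and at rest stood in separate tables whose normalization settings are not given, so they are given side by side and were not tested. Idi1 averaged 4.98 FPKM after running and 5.37 FPKM at rest in HDAC3-KO, and 2.70 FPKM after running and 3.61 FPKM at rest in WT. Fdft1 averaged 22.8 FPKM after running and 29.0 FPKM at rest in HDAC3-KO, and 18.3 FPKM after running and 21.6 FPKM at rest in WT. Sqle averaged 0.593 FPKM after running and 0.628 FPKM at rest in HDAC3-KO, and 0.146 FPKM after running and 0.730 FPKM at rest in WT. The median gene differed between the tables by -0.03 (log2) in HDAC3-KO and -0.0046 in WT.

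The other enzymes of the pathway were a list of 14 genes. At rest 11 were tested and none passed limma or the authors' q. Their median log2 difference was 0.15, with 10 of 11 above 0, against a median of 0.01 and 51.7% above 0 over all tested genes. After running 8 were tested and none passed limma, and the median was -0.04 with 4 of 8 above 0. In the mean effect 1 of 8 was called higher and 1 lower, with a median of 0.10, where 17.2% of all 8854 genes were called. The 3 most abundant were Lbr, whose sterol C14-reductase activity follows Cyp51, Sc5d, the lathosterol desaturase, and Pmvk, the phosphomevalonate kinase. Lbr averaged 15.2 FPKM in HDAC3-KO and 12.3 FPKM in WT at rest (mean effect over both conditions 0.24, SE 0.078, limma adjusted p = 0.0580). For Sc5d the mean effect was 0.02 (SE 0.081, limma adjusted p = 0.890), and for Pmvk 0.01 (SE 0.10, limma adjusted p = 0.956).

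The enzymes called in the mean effect, named after their values were seen, were Tm7sf2 and Hsd17b7. Tm7sf2 encodes the other sterol C14-reductase, and was at 3.42, 3.62 and 2.42 FPKM in HDAC3-KO at rest, against 1.51, 1.96 and 1.35 FPKM in WT at rest. After running it was at 2.65, 3.89 and 4.31 FPKM in HDAC3-KO, against 1.91, 2.48 and 0.873 FPKM in WT, so the genotypes overlapped in neither condition. Its mean effect was 0.72 (SE 0.16, limma adjusted p = 0.0101). Hsd17b7 encodes a 3-ketosteroid reductase of the C4-demethylation steps, and was at 1.17, 1.44 and 2.01 FPKM in HDAC3-KO after running, against 2.72, 2.67 and 2.23 FPKM in WT after running. Its mean effect was -0.38 (SE 0.12, limma adjusted p = 0.0399). After running the q in the authors' deposited table was at or under 0.05 for Hsd17b7 (0.0345, lower in HDAC3-KO) and Ebp, the sterol isomerase (0.0321, higher in HDAC3-KO), which is also named after its values were seen. Ebp was at 4.61, 3.51 and 4.84 FPKM in HDAC3-KO after running, against 1.58, 2.74 and 2.60 FPKM in WT after running (limma adjusted p = 0.0955). At rest Ebp averaged 3.71 FPKM in HDAC3-KO and 3.60 FPKM in WT, with overlap, and its mean effect was 0.37 (SE 0.18, limma adjusted p = 0.185).

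**Figure D3:**
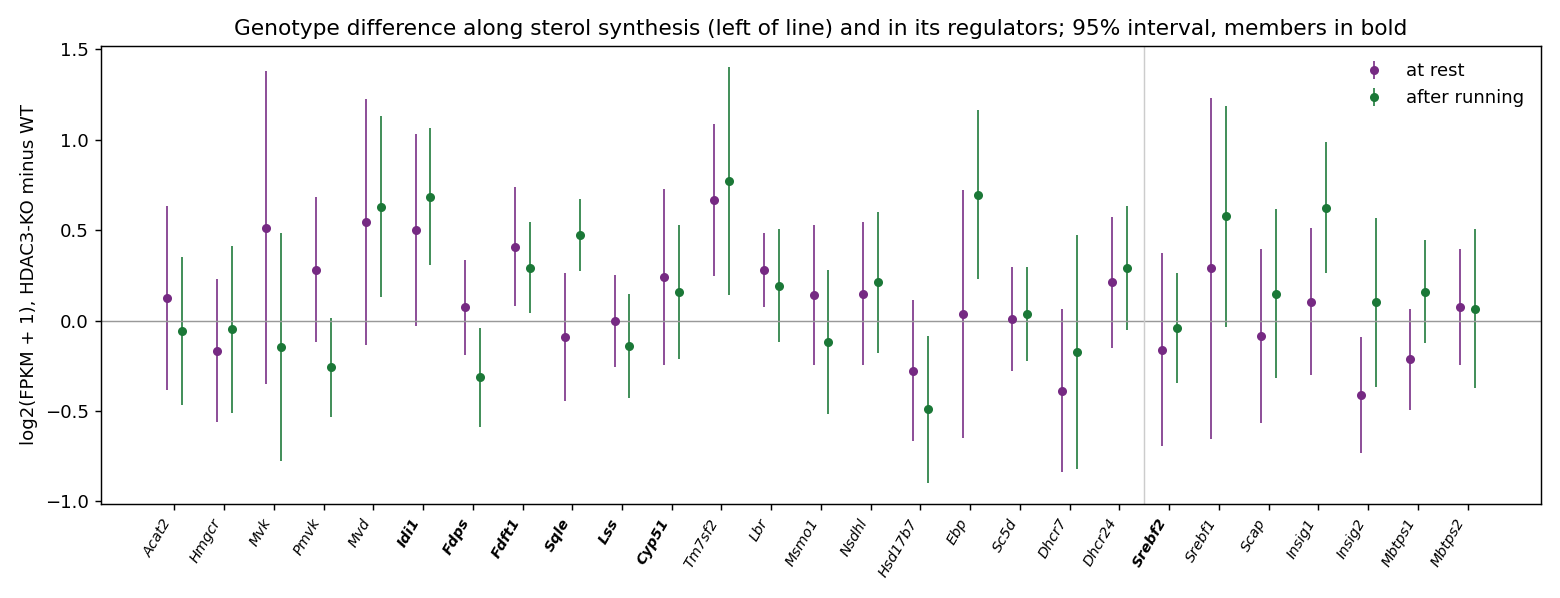
Log2 difference of HDAC3-KO minus WT (vertical axis, log2(FPKM + 1) scale, limma estimates from the fit over all genes with a value above 0) for sterol synthesis enzymes in pathway order (left of the line) and for Srebf2 and the SREBP processing genes (right of it), at rest and after running, with 95% intervals and the members in bold. The intervals of Fdft1 and Tm7sf2 lie above 0 in both conditions, while those of Idi1 and Hsd17b7 include 0 at rest and exclude it after running.

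Of the 6 SREBP processing genes, none passed limma in either condition or in the mean effect. Their median log2 difference was -0.01 at rest and 0.15 after running, when all 6 were above 0. Insig1, a retention factor that is itself a SREBP target, was at 10.2, 9.20 and 8.79 FPKM in HDAC3-KO after running, against 6.68, 4.54 and 6.17 FPKM in WT after running. That difference was 0.63 (SE 0.15, limma adjusted p = 0.0703), with a q of 0.0092 in the authors' deposited table. At rest Insig1 averaged 7.91 FPKM in HDAC3-KO and 7.16 FPKM in WT, with overlap, and its mean effect was 0.37 (SE 0.12, limma adjusted p = 0.0510). Its relative Insig2 averaged 14.3 FPKM in HDAC3-KO and 19.5 FPKM in WT at rest, with no overlap (log2 difference -0.41, SE 0.14, limma adjusted p = 0.141). After running Insig2 averaged 15.9 FPKM in HDAC3-KO and 14.4 FPKM in WT, with overlap, and its mean effect was -0.16 (SE 0.13, limma adjusted p = 0.447). Mbtps1, the site-1 protease, had a mean effect of -0.03 (SE 0.078, limma adjusted p = 0.853).

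In the list of 11 sterol uptake and trafficking genes, 8 were tested and none passed limma within a condition. In the mean effect 1 of 8 was called, against 17.2% of all 8854 genes tested. It was Npc2, which passes lysosomal cholesterol to the membrane protein Npc1. Npc2 was at 13.3, 10.8 and 13.1 FPKM in HDAC3-KO at rest, against 9.12, 7.52 and 8.98 FPKM in WT at rest. After running it was at 10.1, 11.8 and 11.7 FPKM in HDAC3-KO, against 7.21, 8.34 and 7.17 FPKM in WT, again with no overlap. Its mean effect was 0.50 (SE 0.085, limma adjusted p = 0.00193), while that of Npc1 was 0.14 (SE 0.13, limma adjusted p = 0.517) and that of the oxysterol-binding protein gene Osbp 0.09 (SE 0.075, limma adjusted p = 0.469).

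Of 10 efflux, storage and LXR genes, 6 were tested and none passed in any comparison, and the mean effects of Cyp27a1 (-0.02, SE 0.11, limma adjusted p = 0.922), Apoe (-0.19, SE 0.17, limma adjusted p = 0.509) and Nr1h3 (-0.14, SE 0.15, limma adjusted p = 0.569) did not pass. All 8 genes of the isoprenoid branch, which leads from the products of Fdps to ubiquinone, dolichol and prenylated proteins, were tested. None passed within a condition. In the mean effect 1 of 8 was called, against 17.2% of all 8854 genes tested. It was Fnta, lower in HDAC3-KO, the shared alpha subunit of the farnesyl and geranylgeranyl transferases. Fnta averaged 34.5 FPKM in HDAC3-KO and 39.0 FPKM in WT at rest, and 29.7 FPKM in HDAC3-KO and 39.0 FPKM in WT after running (mean effect -0.27, SE 0.080, limma adjusted p = 0.0355). The ubiquinone genes Coq2 (0.18, SE 0.091, limma adjusted p = 0.201) and Pdss2 (0.31, SE 0.11, limma adjusted p = 0.0649) were not called.

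Some markers of other cell types, which also make sterols, differed between the genotypes after running as well. Summed over 6 macrophage markers, FPKM lay between 56.2 and 88.2 in HDAC3-KO after running and between 30.0 and 45.8 in WT after running, without overlap. At rest the sum lay between 37.3 and 63.7 in HDAC3-KO and between 55.2 and 66.5 in WT. Of the 5 markers tested after running, limma called 1, Cd68, higher in HDAC3-KO, and the authors' q called 3. Over all 9037 genes tested after running, limma called 3.73% and the authors' q 9.57%. No macrophage marker was at 0 in any library. Idi1, Fdft1 and Sqle were likewise higher in every HDAC3-KO library than in every WT library after running. Whether they followed this sum from library to library, and its part in them, was not tested. At rest, where the macrophage sums overlapped, the log2 difference was 0.50 for Idi1 and 0.41 for Fdft1, neither of which passed.

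Summed over 7 Schwann cell markers, FPKM lay between 16.3 and 20.1 in HDAC3-KO after running and between 20.7 and 24.3 in WT after running. At rest it lay between 24.1 and 25.7 in HDAC3-KO and between 24.6 and 30.0 in WT. The 6 adipocyte markers summed to between 8.61 and 33.4 FPKM in HDAC3-KO at rest and between 17.1 and 32.5 FPKM in WT at rest, and to between 11.2 and 30.6 FPKM in HDAC3-KO and between 10.8 and 33.6 FPKM in WT after running. Without the library richest in neutrophil markers, WT at rest library 2, the mean effect was 0.56 for Idi1 (limma adjusted p = 0.0305) and 0.35 for Fdft1 (limma adjusted p = 0.0430). Without the other, HDAC3-KO after running library 3, it was 0.59 for Idi1 (limma adjusted p = 0.0238) and 0.31 for Fdft1 (limma adjusted p = 0.0488).

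**Figure D4:**
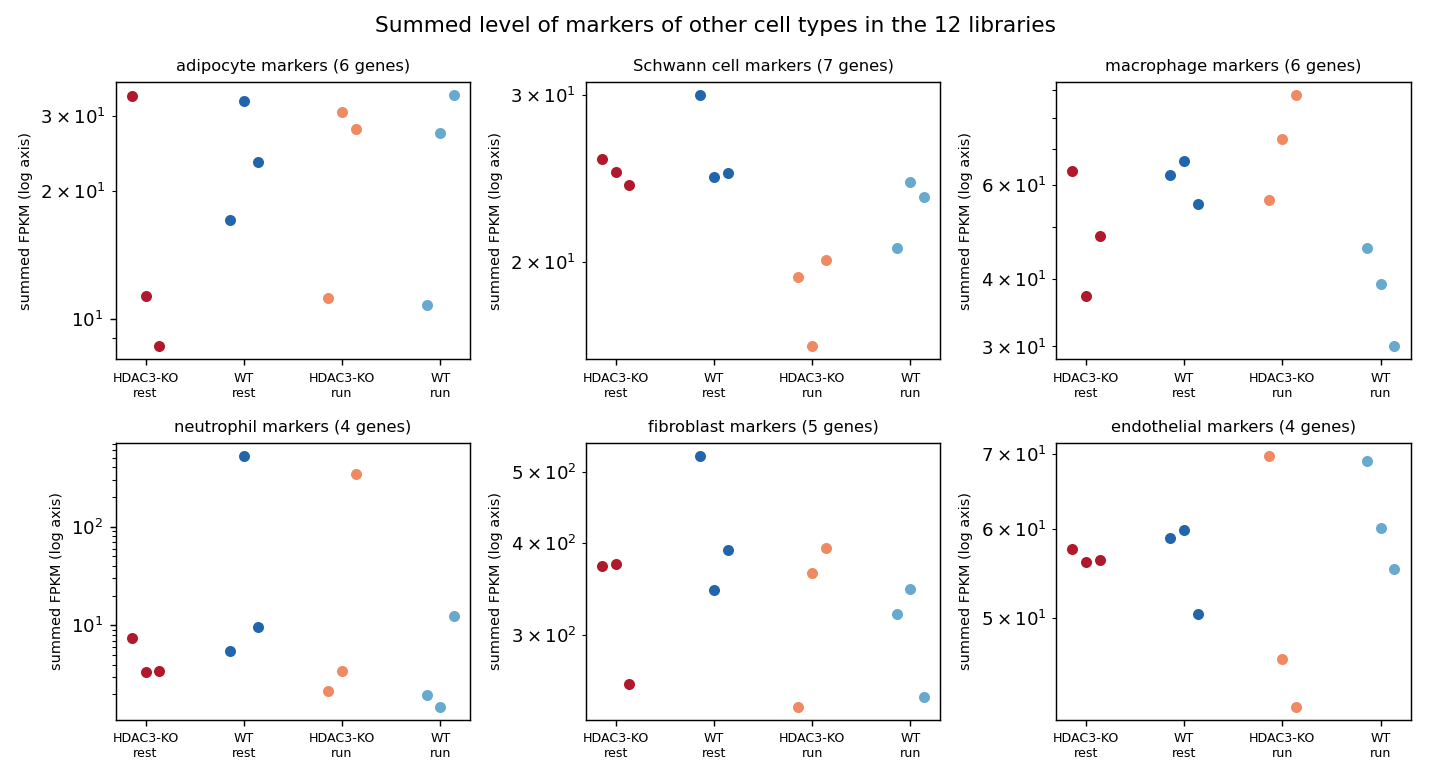
Summed FPKM of marker lists per library (vertical axis, log scale) in HDAC3-KO and WT, at rest and after running. The macrophage sums of HDAC3-KO after running (56.2 to 88.2) lie above those of WT after running (30.0 to 45.8), and 2 libraries lie far above the others for neutrophil markers.

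Within groups the members did not vary as 1 block. With each library expressed on the log2(FPKM + 1) scale as a deviation from its group mean, the 21 pairs among 7 members (without Hmgcs1) had a median Pearson correlation of -0.07 over 12 libraries, 10 of them above 0. The lowest was -0.66 for Fdps and Sqle, and the highest 0.72 for Srebf2 and Sqle. These correlations are a description and were not tested. Depth is unknown, and Srebf2, Lss and Sqle averaged under 1 FPKM. Against the mean profile of the other 7 members, Cyp51 had the highest correlation (0.56) and Fdps the lowest (-0.64). Placed among the 8942 non-members at 1 FPKM or more in every library, Cyp51 ranked 576 and Fdps 8771. Fdft1 ranked 2041, Sqle 2082 and Idi1 2726. The non-members with the profile most like the mean of all 8 were Mnat1 (0.92), Ftsj2, Ift80, C1ra, Tor1b, Sh3d19, Mrpl24 and 2310001H17Rik (0.86), among genes at 1 FPKM or more in every library. They are the highest of the 8942 genes ranked.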

How the data were processed

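RNA-seq values came from 12 quadriceps libraries, 3 in each of 4 groups taken from the sample titles. The 4 GRO-seq libraries were not analysed here. FPKM per library and the p-values and q-values were deposited by the authors in separate tables for rest and running. The tools named per the submitters' processing notes were TopHat2, Bowtie, Cuffdiff and HOMER, with genome build mm9. Their versions, the strandedness and the normalization settings are not given in the sources used here. No counts were given, so depth is unknown. The 27 rows whose names a spreadsheet had turned into dates after running were left out. All 12 library columns were matched by title, and the authors' group means equalled the library means to within 3.3e-06 FPKM.

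A gene was treated as tested where its deposited p was below 1 (9204 genes at rest, 9037 after running, 8854 in both). limma 3.58.1 in R 4.3.3 was fitted to log2(FPKM + 1) of these genes with moderated variances that follow a trend in mean level. Tests were two-sided and adjusted by Benjamini-Hochberg. Rest and running were fitted alone, and the mean effect and the difference of effects over 4 group means. Members outside the tested genes come from the same fit over all genes with a value above 0. The fit was tested on simulated data. Other pseudocounts, filters, quantile normalization, no trend, a replicate block and leaving out each library were tried.

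Members and lists were chosen with earlier results of these data known. Of each list the text names genes past both tests within a condition, otherwise the 3 most abundant, and other names are said to be chosen after their values were seen. Genes most like the members were the 8 with the highest correlation with the members' mean profile. Promoter sequences are from RefSeq (GRCm38.p6), whose build differs from that of the values.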

Additional observations from a re-analysis of the deposited data

How the results depend on the processing

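Of 390 alternative values over 28 differences, for the members without Hmgcs1, 376 kept their direction and side of the threshold. The other 14 changed sign, none of them in a difference that was called. Only the mean effects of Idi1 and Fdft1 were called by limma, so elsewhere keeping the side meant only staying uncalled. Idi1 and Fdft1 stayed called in the mean effect under all 18 alternatives, with limma adjusted p between 0.00177 and 0.0305 and between 0.0147 and 0.0488. Idi1 after running was called under none of the limma alternatives, with limma adjusted p between 0.0504 and 0.157. The number of genes called at rest was 434, against 247 with no filter, 52 with a replicate block, 998 by the authors' q and 20 to 292 without 1 library, lowest without WT library 2. After running it was 337, against 109 with no filter, 170 with a replicate block, 865 by the authors' q and 70 to 103 without 1 library, lowest without HDAC3-KO library 2. In the mean effect it was 1519, with 1162 to 1562 over the alternatives. For the difference of effects it was 0, and 0 to 1 without 1 library, the 1 without WT after running library 3. Among members the authors' q called 1 after running, against 0 by limma. Deviations from group means of same-numbered libraries correlated at 0.0773, -0.103 and 0.152 at rest and at 0.199, -0.217 and -0.199 after running. These are too few values to tell whether such libraries were paired. The replicate block changed no member's call. The difference of Lss at rest changed sign with quantile normalization (0.0535). Leaving out 1 library turned the sign of uncalled differences. The ranges were -0.310 to 0.0437 for Srebf2, -0.0294 to 0.151 for Fdps, -0.189 to 0.0283 for Sqle and -0.0528 to 0.0429 for Lss at rest. They were -0.122 to 0.00702 for Srebf2 after running and -0.175 to 0.0013 for its mean effect. For the difference of effects they were -0.0848 to 0.268 for Srebf2, -0.0421 to 0.348 for Idi1 and -0.250 to 0.0843 for Cyp51. The cause was not tested. FPKM without depth limits what can be said of the 4 members averaging under 1 FPKM.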
